A study of Bombyx mori with 9 samples.

Results

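The humoral defence genes of the silkworm followed here across strains are 7: the antimicrobial peptide genes GLV3, BGLOV2, LEB1/2 and ATTACIN1, the lysozyme gene BGIBMGA010439, and the phenoloxidase genes PPO1 and PRO-PO2. They were picked by name or identifier, with earlier results of these data known, and are 7 of the 15745 features in the deposited expression table. RNA came from silk glands of 3 pure strains of Bombyx mori, A306, XH and A798, with 3 libraries per strain, which the submitters chose because their glands differ in weight. The larvae were reared at 25 °C and 71% humidity and taken on day 5 of the last larval instar. Each sample is labelled with 2 gland weights, whose mean in A306 was 0.688 ± 0.0207 g, in XH 0.974 ± 0.00850 g and in A798 1.28 ± 0.0309 g (SD, n = 3 samples each). No agent, infection or transgene is named for any group. The labels give neither the sex of the animals nor the part of the gland, and they leave unsaid how many animals a library holds or whether animals were shared. P-values here thus reflect only sample-to-sample spread, some of which may be technical.

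Insects have no antibodies and defend the haemolymph, their body fluid, with secreted effectors. Antimicrobial peptides are made mainly by the fat body, and also by haemocytes and epithelia, after receptors for microbial cell walls switch on the Toll and Imd pathways. Lysozyme cuts the peptidoglycan of bacterial walls. Prophenoloxidases are zymogens that haemocytes release and that a cascade of clip-domain proteases activates, after which they start the synthesis of melanin around wounds and microbes. In a larva that is not infected, antimicrobial peptide transcripts are usually scarce.

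Expression was given as FPKM, in which fragments are scaled by the length of the transcript and the size of the library, to 2 decimals, and sequencing depth per library is therefore unknown. FPKM summed to between 502510 and 587872 per library. All 6 genes of a silk gland marker list were above 0, led by the fibroin light chain gene FIBL. The midgut list summed to at most 0.240 FPKM in A306, 0.350 FPKM in XH and 0.140 FPKM in A798 libraries, with the gene of the hypothetical midgut protein Bm123 at 0 throughout. A listed 0 is not proof of absence, since 6 of 51 ribosomal protein genes were also listed at 0 in all libraries. The middle feature of those tested had 5.67 to 5.88 FPKM in A306, 5.34 to 5.47 FPKM in XH and 4.26 to 4.49 FPKM in A798. Strains were compared by limma on log2(FPKM + 1), with Benjamini-Hochberg adjustment over 4636 features. On this scale the median feature was higher by 0.31 in A306 than in A798, by 0.19 in XH than in A798 and by 0.12 in A306 than in XH.

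The defence genes fell into 3 patterns. The 4 antimicrobial peptide genes were at or near 0 in A306, intermediate in XH and highest in A798, which is also the order of gland weight; for ATTACIN1 the values of XH and A798 overlapped. Lysozyme was low in A306 alone, and its XH and A798 values overlapped. The phenoloxidase genes parted from each other: PRO-PO2 was near 0 in A306 and highest in XH, while PPO1 was lowest in A798.

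**Figure D1:**
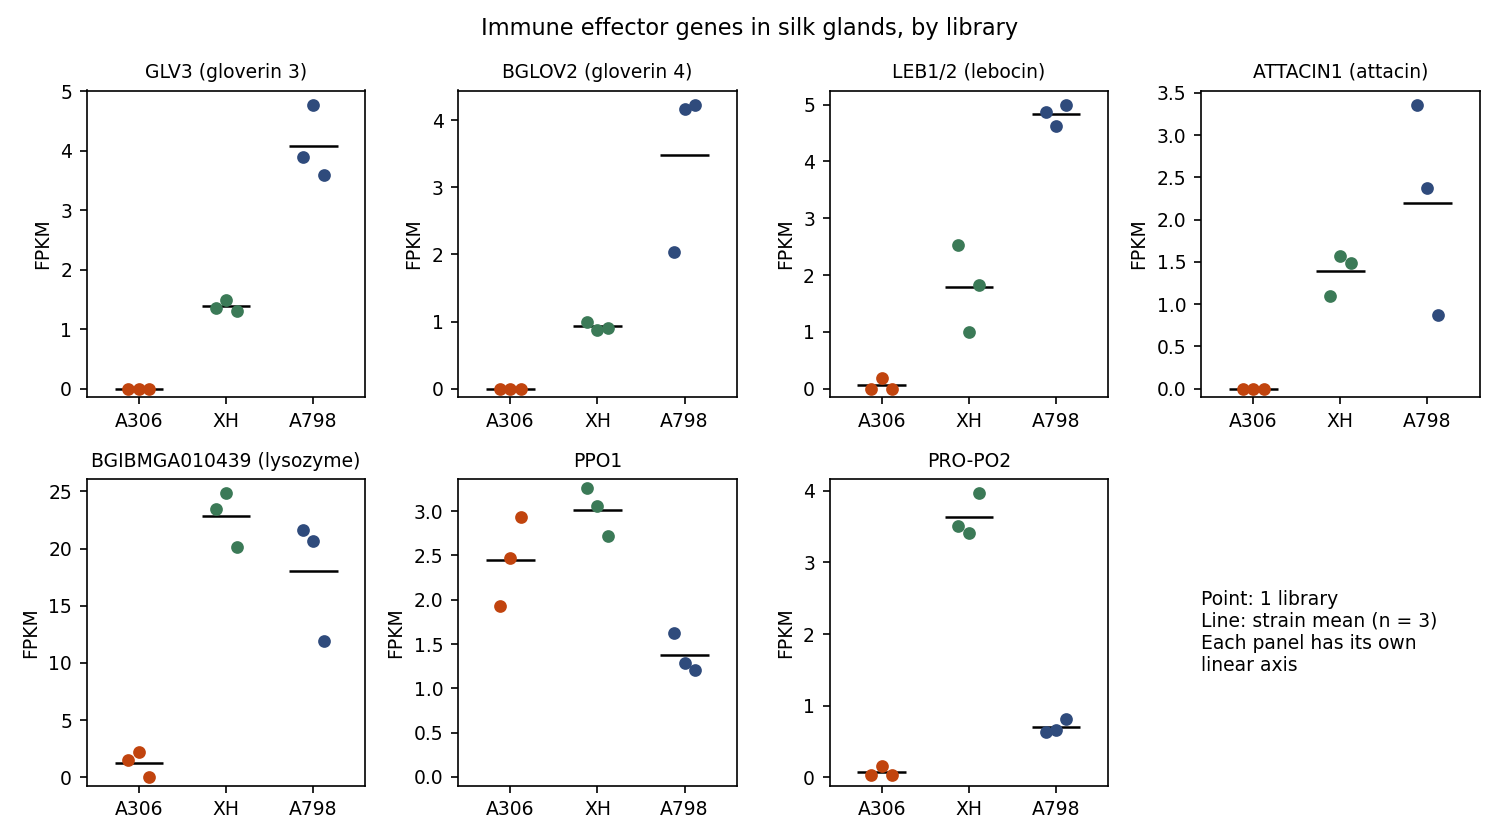
FPKM (linear axes, each panel with its own range) of the 7 defence genes in A306, XH and A798; points are libraries and lines are means of 3. GLV3, BGLOV2 and ATTACIN1 sit at 0 in all A306 libraries, and PRO-PO2 reaches 3.41 to 3.97 FPKM in XH only.

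GLV3 and BGLOV2 encode gloverins, glycine-rich peptides of moths and butterflies that act mainly on Gram-negative bacteria. The deposited description of GLV3 is gloverin 3, and that of BGLOV2 is gloverin 4. GLV3 was listed at 0 in the 3 A306 libraries, at 1.36, 1.49 and 1.31 FPKM in XH and at 3.89, 4.77 and 3.59 FPKM in A798. The strains did not overlap. XH had a 2.94-fold lower mean than A798 (log2 difference -1.08 ± 0.125 SE, limma adjusted p = 0.000385). This SE pools the spread of all 3 strains, and the A306 libraries at 0 add none. With only XH and A798 in the fit, limma adjusted p was 0.00275. A306 was called lower than A798 (adjusted p = 3.82e-06) and than XH (adjusted p = 0.000123); no fold is given against libraries at 0, because the pseudocount sets its size.

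BGLOV2 was listed at 0 in the 3 A306 libraries, at 1.00, 0.88 and 0.90 FPKM in XH and at 2.04, 4.16 and 4.23 FPKM in A798. The strains again stood apart without overlap, although A798 replicate 1 was well below the other A798 libraries. The XH mean was 3.75-fold below that of A798 (log2 difference -1.17 ± 0.212 SE, limma adjusted p = 0.00384). With only XH and A798 in the fit, limma adjusted p was 0.0180. The A306 calls had adjusted p = 0.000114 against A798 and adjusted p = 0.00938 against XH. Gloverin genes are alike in sequence, and how the authors' counting divided shared reads between them is not known. In the RefSeq annotation of assembly ASM3026992v2 the genes named gloverin 3 and gloverin 4 lie on the same chromosome with 39 gene starts between them.

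LEB1/2 encodes lebocin, a proline-rich peptide, and is described in the deposited table as lebocin 3. It was at 0, 0.19 and 0 FPKM in A306, at 2.53, 0.99 and 1.83 FPKM in XH and at 4.88, 4.62 and 5.00 FPKM in A798. XH libraries spread more widely (SD 0.771 FPKM) than A798 libraries (SD 0.194 FPKM), yet no library of one strain reached the next strain. The mean of XH was 2.71-fold lower than that of A798 (log2 difference -1.11 ± 0.208 SE, limma adjusted p = 0.00461), a call that was lost with a pseudocount of 0.1 (adjusted p = 0.0551, over all alternatives from 0.00205 to 0.0551). A306 was called lower than A798 (adjusted p = 4.57e-05) and than XH (adjusted p = 0.00138). RefSeq carries lebocins 1 to 4 as synonyms of a single gene, so this row may not be a single lebocin.

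ATTACIN1 encodes attacin, a larger glycine-rich protein that acts on the outer membrane of Gram-negative bacteria. It was listed at 0 in the 3 A306 libraries, at 1.10, 1.57 and 1.49 FPKM in XH and at 3.36, 2.37 and 0.87 FPKM in A798. A306 lay below every other library, while A798 replicate 3 was below all XH libraries. A306 was called lower than A798 (limma adjusted p = 0.00248) and than XH (adjusted p = 0.0103). XH and A798 did not differ beyond their spread (log2 difference -0.34, 95% interval -1.01 to 0.32, adjusted p = 0.409). Without A798 replicate 3, XH was called lower than A798 (log2 difference -0.69, adjusted p = 0.0257). Without A798 replicate 1 the difference was -0.08 (adjusted p = 0.858). In 18 of the 19 alternatives that tested ATTACIN1, XH and A798 were not called different.

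The table holds 15 further antimicrobial peptide rows, among them cecropins, enbocins and moricins, and 13 of them were listed at 0 in every library. Of these rows 1 passed the filter on low values: BGLOV1, described as gloverin 2. It was at 0 in all A306 libraries, at 0.32, 1.07 and 0 FPKM in XH and at 2.32, 0.79 and 1.45 FPKM in A798. Only its difference between A306 and A798 was called (limma adjusted p = 0.00979). The further row above 0 was a cecropin B copy, BGIBMGA000021, at 13.1 FPKM in A798 replicate 2 and at 0 in the other 8 libraries.

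The lysozyme gene BGIBMGA010439 was the most abundant of the 7 in XH and A798, though not in A306, where PPO1 had a higher mean. It was at 1.52, 2.23 and 0 FPKM in A306, at 23.4, 24.9 and 20.2 FPKM in XH and at 21.6, 20.7 and 11.9 FPKM in A798. All A306 libraries were far below the rest, and XH and A798 overlapped, with A798 replicate 3 the lowest of these 6 libraries. A306 was called lower than A798 (log2 difference -3.20 ± 0.421 SE, limma adjusted p = 0.000493) and than XH (-3.56 ± 0.421 SE, adjusted p = 0.000341). The log2 difference between XH and A798 was 0.36, with a 95% interval from -0.61 to 1.34 (adjusted p = 0.563). A second row, a putative lysozyme, was listed at 0 in all libraries.

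The summed FPKM of the 4 antimicrobial peptide genes was 0, 0.19 and 0 in A306, 5.99, 4.93 and 5.53 in XH and 14.2, 15.9 and 13.7 in A798. Per FPKM of lysozyme, which cancels any factor common to a library, this sum was 0.243 ± 0.0395 in XH and 0.859 ± 0.260 in A798 (SD, n = 3 each). The 3 XH libraries lay below the 3 A798 libraries. An exact permutation test (two-sided) had p = 0.1, the smallest that 3 against 3 allow; this quotient was chosen after the values were seen.

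PPO1 and PRO-PO2 encode the pair of prophenoloxidase subunits, which oxidise phenols to the quinones from which melanin forms. PRO-PO2 was at 0.03, 0.16 and 0.03 FPKM in A306, at 3.51, 3.41 and 3.97 FPKM in XH and at 0.63, 0.66 and 0.81 FPKM in A798. The strains were separate, and the lowest values are close to the 2 decimals of the table. XH had a 5.19-fold higher mean than A798 (log2 difference 1.45 ± 0.122 SE, limma adjusted p = 7.49e-05). A306 was called lower than A798 (log2 difference -0.66 ± 0.122 SE, adjusted p = 0.00278) and than XH (-2.11 ± 0.122 SE, adjusted p = 5.46e-06). PRO-PO2 passed the filter of at least 1 FPKM in 3 libraries through XH alone, so its calls against XH rest on that choice. All its A306 and A798 values were below 1 FPKM, and without an XH library it left the test.

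PPO1 was at 1.93, 2.47 and 2.93 FPKM in A306, at 3.26, 3.06 and 2.72 FPKM in XH and at 1.63, 1.29 and 1.21 FPKM in A798. A798 lay below the other strains, which overlapped. XH had a 2.19-fold higher mean than A798 (log2 difference 0.76 ± 0.144 SE, limma adjusted p = 0.00495). A306 had a 1.77-fold higher mean than A798, and its call as higher (log2 difference 0.53 ± 0.144 SE, adjusted p = 0.0176) was not stable. The call was lost under all 4 scalings tried, with adjusted p from 0.0662 to 0.339. It was also lost without A306 replicate 2 or 3 or A798 replicate 3, with adjusted p from 0.0508 to 0.0585, and over all alternatives adjusted p ran from 0.0111 to 0.339. A306 and XH did not differ beyond their spread (log2 difference -0.23, 95% interval -0.56 to 0.10, adjusted p = 0.263).

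PRO-PO2 FPKM per PPO1 FPKM cancels any factor common to a library. It was 0.0302 ± 0.0301 in A306, 1.22 ± 0.211 in XH and 0.523 ± 0.142 in A798 (SD, n = 3 each). The A306 value rests largely on replicate 2 and was 0.0129 without it. XH glands thus held slightly more PRO-PO2 than PPO1 per length of transcript, and A306 glands held almost PPO1 alone. Every A306 library was below every A798 library, and every XH library above. For all 3 strain pairs an exact permutation test (two-sided) had p = 0.1, also after adjustment over the pairs, which is the smallest value possible.

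**Figure D2:**
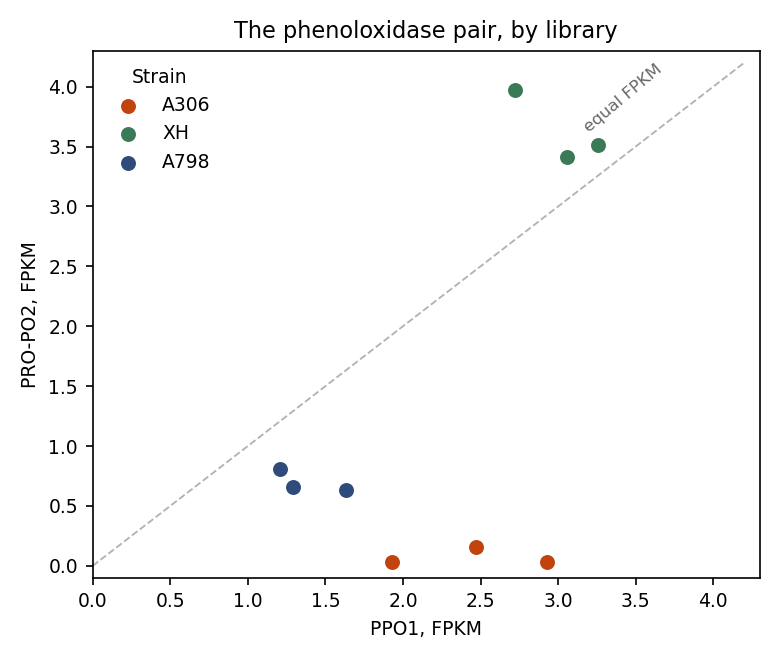
PRO-PO2 FPKM against PPO1 FPKM; each point is a library, colours are the strains A306, XH and A798, and the dashed line marks equal FPKM. The A306 libraries lie along the bottom at 0.03 to 0.16 FPKM of PRO-PO2, the XH libraries above the line and the A798 libraries below it.

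In A306 against A798, 6 of the 7 genes were called lower and 1, PPO1, higher; of all 4636 features tested 9.60% were called lower and 37.9% higher, 47.5% together. In XH against A798, 3 of the 7 (GLV3, BGLOV2 and LEB1/2) were called lower and 2, the phenoloxidase genes, higher, against 8.02% and 25.7% of all features, 33.7% together. In A306 against XH, 6 of the 7 were called lower and none (0) higher, against 13.4% and 23.1% of all features, 36.5% together; PPO1 was not called. Counted by libraries that do not overlap, 6 of the 7 lay below and 1 above in A306 against A798, where 11.3% of all features lay below and 45.4% above. In XH against A798, 3 lay below and 2 above, against 11.4% and 34.9% of all features. In A306 against XH, 6 lay below and 0 above, against 18.0% and 32.1% of all features. The comparisons share libraries and are not independent of each other. The median log2 difference of the 7 genes was -2.12 in A306 against A798, -0.34 in XH against A798 and -1.25 in A306 against XH. Of these, the first and the last are values of genes at 0 in A306, BGLOV2 and GLV3, so the pseudocount sets them. The median in XH against A798 is the value of ATTACIN1 and was not stable: it was -0.08 without A798 replicate 1, -0.69 without A798 replicate 3, -0.72 to -0.64 without an XH library, where PRO-PO2 leaves the test, and -0.58 with library medians made equal. All 7 passed the filter of at least 1 FPKM in 3 libraries, but PRO-PO2 passed through XH alone, and the antimicrobial peptide genes passed through XH and A798. None of these genes reached 1 FPKM in an A306 library. The counts of lower genes in A306, by call or by overlap, thus rest partly on the filter, as does PRO-PO2 as higher in XH. The 7 were also chosen with earlier results known, so the counts beside all features are descriptive only. Of the calls over all features, higher ones made up 79.8%, 76.2% and 63.3% in the 3 comparisons as deposited, and over the 4 scalings tried 47.6 to 67.2%, 44.1 to 69.3% and 51.2 to 54.0%.

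**Figure D3:**
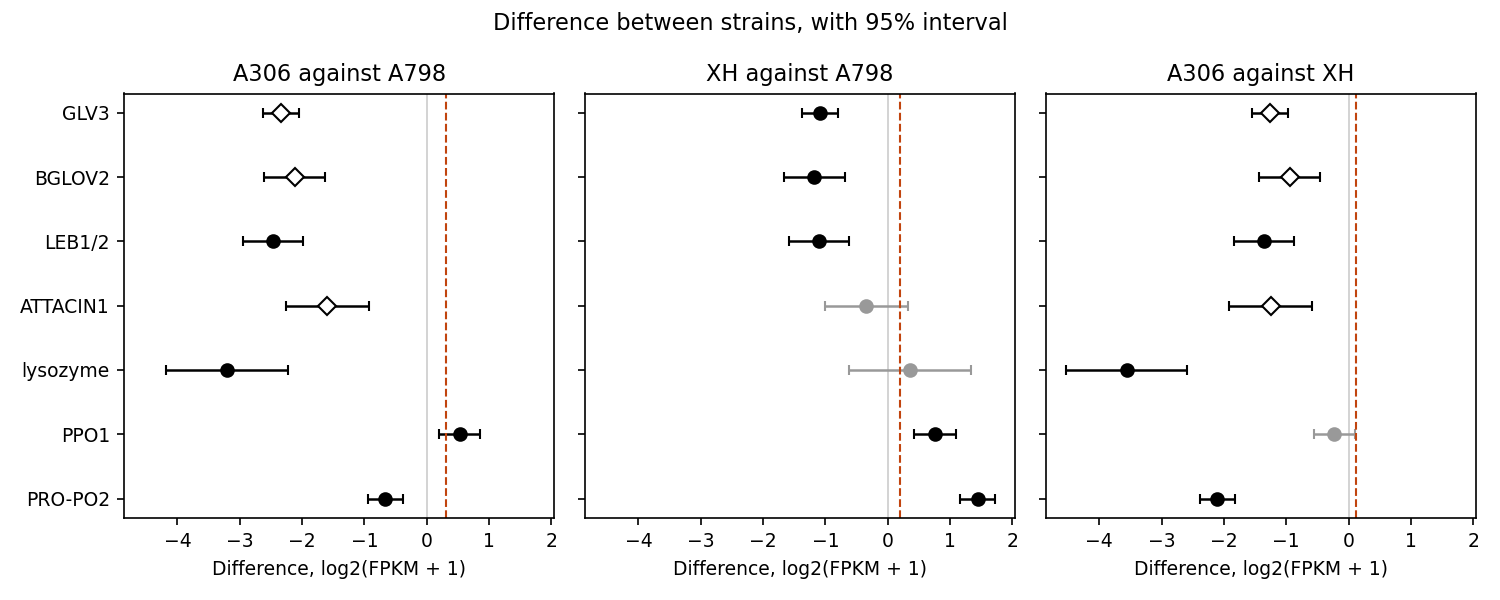
Difference in log2(FPKM + 1) between strains with 95% limma intervals, 1 panel per comparison; black marks were called, grey marks were not, open diamonds are genes at 0 in all libraries of the first strain, and the dashed line is the median of all features tested. In XH against A798 the gloverin and lebocin genes lie left of 0 and the phenoloxidase genes right of it.

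Marker lists of other tissues were also summed in each library. The fat body list (19 genes of storage proteins, lipoproteins and vitellogenin) summed to 70.9 to 77.3 FPKM in A306, 1800 to 1883 FPKM in XH and 622 to 641 FPKM in A798. Of its 13 tested genes, 11 were called lower and 0 higher in A306 against A798, 13 higher in XH against A798, and 13 lower in A306 against XH. Over all features, 9.60% were lower and 37.9% higher in A306 against A798, 25.7% were higher in XH against A798 and 13.4% lower in A306 against XH. Of the 13 genes, LSP-T, BGIBMGA004404 and BGIBMGA008164 passed the filter through XH alone. SLP also needed XH to pass, since outside XH only A798 replicate 1 reached 1 FPKM. The calls of these genes against XH rest on that choice. The most abundant gene over the 9 libraries, the lipoprotein gene LP-C19, which led the list in XH but not in A306 or A798, averaged 15.4 FPKM in A306, 439 FPKM in XH and 124 FPKM in A798, while vitellogenin (VG) stayed at or below 0.01 FPKM throughout. The fat body list thus had the strain order of PRO-PO2, and differed from the antimicrobial peptide genes in the place of XH. In bulk tissue, fewer cells of a type and less RNA per cell cannot be told apart, and the part of fat body tissue in these results was not tested.

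Haemocyte markers outside the 7 genes were close to 0 in every strain. The list of 5 summed to 0.270 to 0.590 FPKM in A306, 0.370 to 0.650 FPKM in XH and 0.130 to 0.670 FPKM in A798. Hemocytin (BGIBMGA006692), a clotting lectin of haemocytes, was at most 0.640 FPKM, the integrin beta row BGIBMGA008986 was at 0 in every library, and no gene of the list could be tested. The summed muscle markers had the order of PPO1 only in that A798 was lowest. The list of 5 summed to 72.1 to 81.7 FPKM in A306, 68.7 to 72.7 FPKM in XH and 38.5 to 44.0 FPKM in A798, most of it muscle actin A1. Not all its genes shared this order: BGIBMGA012961 and BGIBMGA008861 had their lowest mean in A306. Whether muscle or haemocytes contribute to the phenoloxidase values was not tested. The silk gland list summed to 115% of the A798 mean in A306 and 153% in XH, a sum carried by FIBL and P25. The fibroin heavy chain gene BGIBMGA005111 went the other way in A306 (268 FPKM, against 854 FPKM in A798, log2 difference -1.67, limma adjusted p = 2.95e-08). In XH it averaged 1479 FPKM and was called higher than in A798 (0.79, adjusted p = 3.32e-06). This gene thus also had the strain order of PRO-PO2. SGF3, silk gland factor 3, was called lower in XH than in A798 (-0.27, adjusted p = 0.0238).

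**Figure D4:**
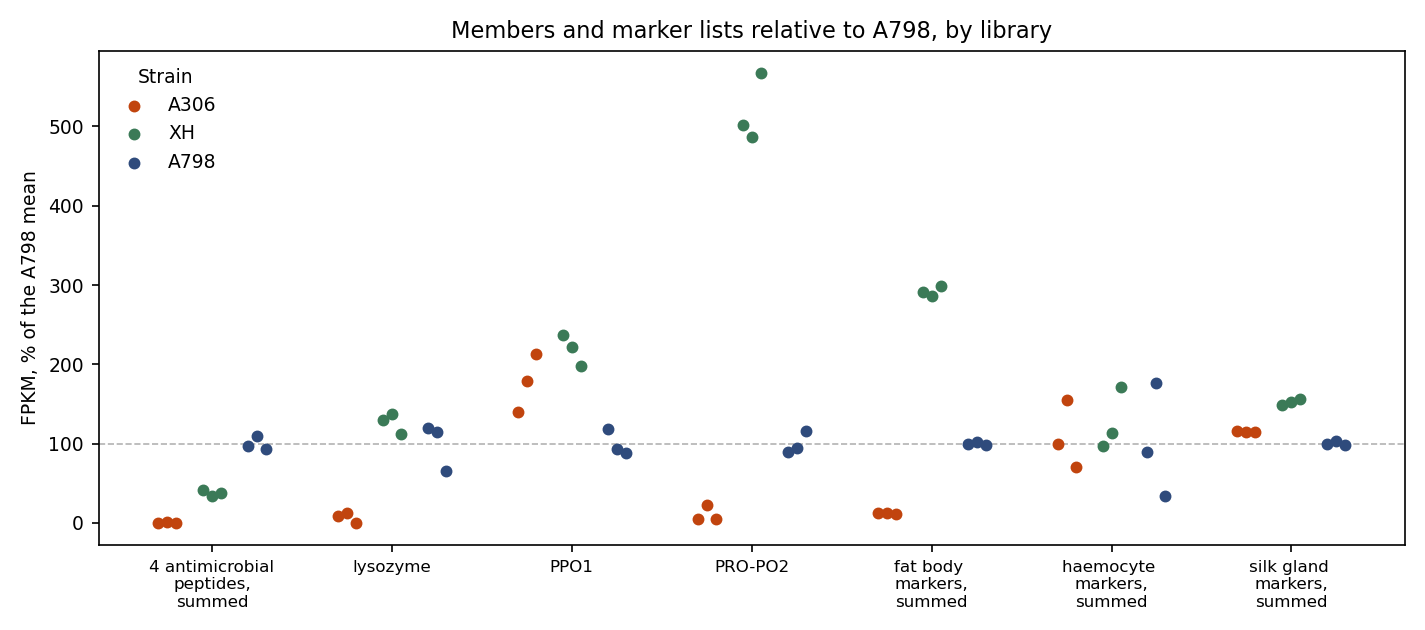
FPKM in each library as a percentage of the A798 mean, for the 4 antimicrobial peptide genes summed, lysozyme, PPO1, PRO-PO2 and 3 summed marker lists; points are libraries, in the order A306, XH, A798 within each item. XH libraries stand at 33.8 to 41.0% for the peptides, 286 to 299% for fat body markers and 487 to 567% for PRO-PO2.

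Upstream of the effectors, few genes were measured well. Of 4 pattern recognition genes 2 were tested. PGRP-S1, a short peptidoglycan recognition protein, was at 5.14, 9.45 and 9.61 FPKM in A306, at 18.2, 18.0 and 17.2 FPKM in XH and at 20.1, 19.8 and 15.8 FPKM in A798. Like lysozyme it was low in A306 alone: A306 was called lower than A798 (log2 difference -1.15, limma adjusted p = 0.00258) and than XH (-1.09, adjusted p = 0.00421), and XH and A798 did not differ beyond their spread (-0.05, adjusted p = 0.883). The galectin gene BGIBMGA014456, for a sugar-binding protein, was higher in A306 than in A798 (46.4 ± 1.31 against 34.2 ± 3.55 FPKM, log2 difference 0.43, adjusted p = 0.00463), and the difference shrank to between 0.10 and 0.25 under the 4 scalings. BGRP1, a beta-1,3-glucan-binding protein that can start the phenoloxidase cascade, did not reach the filter. It averaged 0.04 FPKM in A306, 0.693 FPKM in XH and 0.333 FPKM in A798, and its libraries did not overlap between strains.

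The list for immune signalling matched 4 genes by symbol or description and 2 were tested; no row was matched to Toll, Imd or a Rel factor. BMPP, the precursor of paralytic peptide, an insect cytokine, averaged 0.750 ± 0.289 FPKM in A306 and 3.90 ± 1.43 FPKM in XH (SD, n = 3 each). In A798 it was at 0, 0.97 and 2.20 FPKM. XH was called higher than A798 (log2 difference 1.37, limma adjusted p = 0.0361), and A306 lower than XH (-1.46, adjusted p = 0.0254). Outside XH only A798 replicate 3 reached 1 FPKM, so BMPP needed XH to pass the filter. Its calls against XH rest on that choice. PP, described as promoting protein and matched by its symbol alone, averaged 0.850 ± 0.0529 FPKM in A306, 21.5 ± 1.97 FPKM in XH and 4.81 ± 1.36 FPKM in A798, with all 3 differences called. The untested matches, PP-BP, which is also in the fat body list, and the Delta-like gene DL, did not exceed 0.730 FPKM.

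In the melanin pathway, tyrosine hydroxylase (TH), which makes the precursor L-DOPA, did not exceed 0.10 FPKM in any library and was not tested.

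Of 12 genes matched in a list for clip proteases and serpins, 6 were tested. Proteases and inhibitors of these kinds can drive and restrain such cascades, but no matched row is described as a clip-domain protease. In XH against A798, 3 were called higher and 0 lower, where 25.7% of all features were called higher and 8.02% lower. SERPIN-9 averaged 38.7 ± 0.991 FPKM in XH and 0.637 ± 0.280 FPKM in A798 (log2 difference 4.61, limma adjusted p = 2.55e-07). The serine proteinase-like gene BGIBMGA009551 averaged 4.45 ± 0.304 FPKM in XH and 1.52 ± 0.372 FPKM in A798 (1.12, adjusted p = 0.000832), and SERPIN-7 1.39 ± 0.206 FPKM in XH and 0.370 ± 0.0624 FPKM in A798 (0.80, adjusted p = 0.00197). SERPIN-7 passed the filter through XH alone. SERPIN-9 also needed XH to pass, since outside XH only A306 replicate 3 reached 1 FPKM (1.14). The calls of SERPIN-7 and SERPIN-9 against XH rest on that choice. The 3 genes called higher in XH were also the ones called lower in A306 against XH (13.4% of all features). None of them was called in A306 against A798. SERPIN-4 was called higher in A306 than in A798 as deposited (0.17, adjusted p = 0.0444), but its sign turned under all 4 scalings, with log2 differences from -0.16 to -0.02. SERPIN-14 and SPI37 were not called in any comparison.

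**Figure D5:**
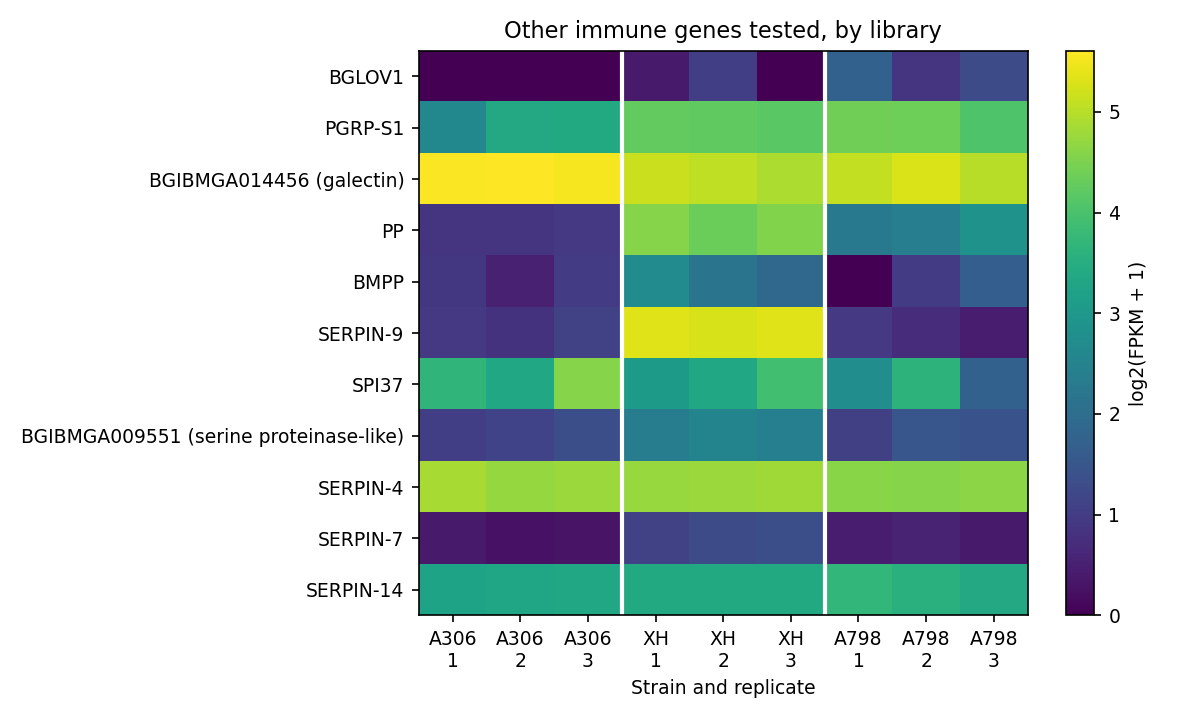
Heat map of log2(FPKM + 1) for 11 tested genes of the recognition, signalling, protease and serpin, and antimicrobial peptide lists, 1 column per library in the order A306, XH, A798. SERPIN-9 and PP are bright in the 3 XH columns, and BGLOV1 is dark in the 3 A306 columns.

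Likeness of pattern was measured as the root mean square difference, over the 9 libraries, between log2(FPKM + 1) values centred on each gene's own mean. GLV3 was 0.25 from BGLOV2, 0.26 from LEB1/2 and 0.45 from ATTACIN1, against 1.06 from lysozyme and 1.20 from PPO1. PPO1 and PRO-PO2 were 0.79 apart. These distances describe patterns dominated by strain means, carry no test, and grow with the size of a gene's change. Because the pseudocount shrinks changes of low genes, a low gene can lie near an abundant gene with a much smaller fold. Among annotated genes outside the 7, the nearest to GLV3 and ATTACIN1 was TEF2, described as translation elongation factor 2 (0.26 and 0.30). TEF2 averaged 380 ± 59.0 FPKM in A306, 845 ± 87.7 FPKM in XH and 1353 ± 181 FPKM in A798. BMSUC1, beta-fructofuranosidase, was nearest to BGLOV2 (0.32), and the acid lipase gene BGIBMGA005695 to LEB1/2 (0.34). The acid lipase gene averaged 0.0800 ± 0.0693 FPKM in A306, 2.82 ± 0.0757 FPKM in XH and 4.33 ± 0.637 FPKM in A798.

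For the other genes the nearest annotated neighbours were of different kinds. The sigma glutathione S-transferase gene BGIBMGA009107 was nearest to lysozyme (0.53), and was listed at 0 in A306, with means of 12.4 ± 3.16 FPKM in XH and 12.2 ± 3.44 FPKM in A798. The next was a small heat shock protein gene, BGIBMGA005781 (0.55). The cuticle protein gene BMORCPR90 was nearest to PPO1 (0.11), with 39.0 ± 1.70 FPKM in A306, 47.6 ± 2.49 FPKM in XH and 25.4 ± 4.23 FPKM in A798, followed by an importin alpha gene, BGIBMGA011351 (0.13). SPARC, a secreted matrix protein, was nearest to PRO-PO2 (0.16), with 2.44 ± 0.358 FPKM in A306, 14.0 ± 0.395 FPKM in XH and 3.52 ± 0.646 FPKM in A798. The lipoprotein gene LP-C12 of the fat body list followed (0.19).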

How the data were processed

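RNA was extracted from silk glands with TRIzol reagent according to the labels' protocols. DESeq2 1.24.0, fastp 0.19.5 and StringTie 1.3.3b are listed in the submitters' processing notes. Aligner, genome build and gene annotation: not given in the sources used here. Values deposited by the authors are FPKM per gene, and the 9 library columns of that table were used. A second small table was not used here. Because FPKM are relative to library size, abundant features lower the values of all others. Low values were searched for steps of single fragments: 342 features between 0.3 and 3 FPKM where above 0, in 3 to 6 libraries, were compared, and in 0 of them did the values lie within 10% of each other. Relative depth is therefore unknown.

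Features with at least 1 FPKM in at least 3 libraries were kept (4636). limma 3.58.1 in R 4.3.3 fitted strain means to log2(FPKM + 1) of all 9 libraries, with trended empirical Bayes variances; calls had adjusted p below 0.05, two-sided. The fit was tested on simulated data. Exact permutation tests used SciPy 1.17.1. On the log2(FPKM + 1) scale, changes of low genes are understated.

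The 7 genes and the lists were chosen with earlier results of these data known. Named genes were the 7, the tested genes of the other immune lists (1 is not reported here), the most abundant gene or genes at 0 of marker lists, and the 2 nearest annotated genes per member. List genes were matched by symbol or description; a generic symbol prefix was dropped from the fat body list, and a fibroinase from the silk gland list, after values were seen. Of the 7 genes 6 matched a RefSeq gene by name, and 0 deposited identifiers did, so positions are not given. Alternatives covered pseudocount, filter, scaling, features, samples in the fit, variance trend, replicate number and leaving out each library.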

Additional observations from a re-analysis of the deposited data

How the results depend on the processing

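None (0) of the log2 differences of the 7 genes changed sign in the 20 alternatives. In A306 against A798 the count called higher, 1 (PPO1), became 0 with library medians made equal, 0 under quantile normalization, 0 with the sum outside the 20 most abundant features made equal and 0 without ENSRNA models, and ran from 0 to 1 when 1 library was left out. With at least 5 FPKM in 3 libraries lysozyme alone was tested, so the counts called higher and lower became 0 and 1 in A306 against A798, 0 and 0 in XH against A798, and 0 and 1 in A306 against XH. In XH against A798 the count called higher, 2, ran from 1 to 2 when 1 library was left out, because PRO-PO2 no longer passed the filter without an XH library. With a pseudocount of 0.1 the median log2 difference of the 7 genes was -4.60 in A306 against A798 and -3.88 in A306 against XH. Over all features, higher and lower calls in A306 against A798 were 1759 and 445 as deposited and 759 and 834 with library medians made equal; in XH against A798 they were 1191 and 372, and 559 and 709. Quantile normalization gave 796 and 693, and 649 and 595; higher calls in A306 against A798 were 1166 with the outer sum made equal and 1165 without ENSRNA models. With at least 5 FPKM in 3 libraries, lower calls numbered 282 in A306 against A798 and 406 in A306 against XH, where 622 were called as deposited. Same-numbered libraries of different strains deviated together only weakly, though always in the same direction (r = 0.0004 to 0.063). Differently numbered libraries had r from -0.093 to 0.036. The numbers were not taken to pair samples. With the replicate block the counts of the 7 genes called higher and lower were 1 and 6, 2 and 3, and 0 and 6, as without it. Unknown depth and 2 decimals limit values under about 0.10 FPKM.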
